A study of Arabidopsis thaliana with 123 samples.

Results

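Developing seeds of the Arabidopsis thaliana mutant abi3-12 were compared with wild-type seeds at 20 days after pollination (DAP). The comparison rests on 6 of the 123 RNA sequencing libraries of an atlas of seed maturation. The 3 libraries labelled abi3-12 and the 3 labelled wild type at 20 DAP were taken from the experimental round called batch B. Both groups are in the Col-0 accession, and abi3-12 carries only the abi3-12 allele, which the labels class as a knock-out. Plants of a round were grown together, on Rockwool, and each extracted replicate was a pool of seeds from 4 siliques, per the labels' protocols. The study followed mutants of abscisic acid (ABA) synthesis and signalling that acquire seed quality traits less fully. Beside the 6 libraries, abi3-12 and wild type of batch B at 18, 22 and 24 DAP and in dry seed were used for context. The wild type of batch A and the allele abi3-6 of batch A at 20 DAP served likewise, as did dog1-4, abi3-12 dog1-4 and abi3-12 dog1-4 cyp707a2 of batch B at 20 DAP. Those 3 genotypes and abi3-6 are also in Col-0 and are classed as single, double or triple knock-outs. The lesion in each allele is not given in the sources used here, and the dissected seeds hold embryo, endosperm and seed coat together.

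ABI3 encodes a B3-domain transcription factor that binds the RY element and acts with bZIP factors at ABA-responsive elements. It is one of the master regulators of the maturation phase, when the embryo fills protein bodies and oil bodies, loses its chlorophyll, becomes dormant and gains desiccation tolerance. Loss of ABI3 function is known for green, ABA-insensitive seeds that store poorly.

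Levels are given as counts per 1000000 counts of a library (CPM), scaled by trimmed-mean factors so that the typical gene is level between libraries, and changes as log2 fold change, abi3-12 minus wild type. Calls were made with edgeR's quasi-likelihood test and Benjamini-Hochberg adjustment, at a threshold of 0.05. Every adjusted p below comes from that test unless another tool is named, and ± marks the SE of a log2 fold change or the SD of a mean level. Nothing states that the pools came from separate cultures or plants, so the p-values measure the spread between these libraries. In whole seeds, fewer cells of a type and less RNA per cell cannot be told apart.

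The wild-type libraries held 12989528, 14292985 and 14713954 counts, and the abi3-12 libraries held 12097341, 10545243 and 4283538. The 10 most abundant genes of a library held 32.9% to 40.3% of wild-type counts and 29.6% to 33.2% of abi3-12 counts. By mean wild-type level, the top 10 included storage proteins but also OLEO1, RAB18, AT3G15670, EPR1 and AT2G05580. The wild-type libraries stood further apart from each other than the mutant ones. Chi-square per degree of freedom between their count profiles was 34.0, 71.2 and 15.42, against 5.93, 7.28 and 8.55 between the abi3-12 libraries. That measure uses raw counts and so grows with depth, which was lower in the abi3-12 libraries, above all in replicate 3. Of 13006 genes with a mean of at least 5 CPM in either group, 185 had a highest wild-type library over 4 times the lowest, and 63 did so in abi3-12; 82 of the 185 were called. These spread counts, and the placing on a time course that follows, were chosen after the data were seen.

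Each library was set against the wild-type course of batch A by rank correlation across 20072 genes, with the course interpolated in steps of 0.1 days. The wild-type libraries labelled 20 DAP were most like days 18.1, 18.5 and 18.8 of that course, and the abi3-12 libraries were most like days 18.8, 18.8 and 18.6. The groups overlapped, and an exact permutation test, two-sided, gave p = 0.4. Wild-type replicate 1 was placed earliest of the 6. Libraries labelled 18 DAP in batch B were most like days 16.3 to 17, and those labelled 22 DAP were most like days 19.6 to 21.9.

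**Figure D1:**
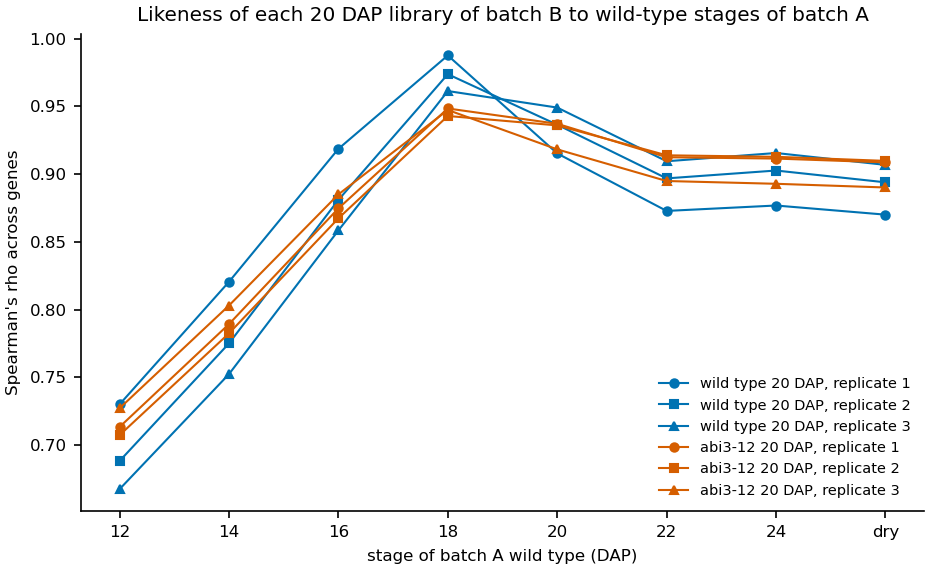
Spearman's rho across 20072 genes (y axis) between each of the 6 libraries at 20 DAP and the mean of each wild-type stage of batch A (x axis, days after pollination, with dry seed last). Each line is 1 library; all 6 peak at 18 DAP, and wild-type replicate 1 has the lowest value at dry seed.

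Of 20912 genes tested, 7868 (37.6%) were called: 3820 (18.3%) were higher in abi3-12 and 4048 (19.4%) were lower. Changes of at least 2-fold were called for 1498 higher genes (7.16%) and 1163 lower genes (5.56%). The libraries of the groups did not overlap for 8754 genes (41.9%), with 20.2% of all genes higher and 21.7% lower in this way, and 32.7% of genes were both called and without overlap. These shares are the background for every list below. The split of directions depends on the scaling: with library totals alone, 8968 genes were higher and 1136 lower, because the median of all genes moved up by 0.47 on the log2 scale. The trimmed-mean factors of the wild-type libraries were 0.524 to 0.549 and those of abi3-12 were 0.736 to 0.755. Directions below are relative to the typical gene, and small changes that turn with library totals are marked.

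ABI3 transcript itself remained present in the mutant. Its levels were 420, 429 and 343 CPM in wild type and 317, 295 and 315 CPM in abi3-12. The groups did not overlap, but they lay close together. The change was -0.36 ± 0.10 (adjusted p = 0.00312), and it turned to 0.11 with library totals (adjusted p = 0.384). It was no longer called without wild-type replicate 2, at -0.27 (adjusted p = 0.0715). The call was also lost with only the groups compared, at -0.34 (adjusted p = 0.0583). Transcript level is thus no clear check of the genotype labels here, as the sources used do not describe the lesion. Among the 20 tested genes nearest to ABI3 on chromosome 3, 7 were called (35%), 3 higher and 4 lower, a share chosen for counting after the data were seen and close to the background.

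Storage proteins changed in opposite directions within 1 family. The list holds cruciferins, 2S albumins and vicilin-like proteins, which fill the protein bodies and feed the seedling. Of 13 tested members, 6 were lower and 3 higher, with a median of -0.61 against 0 for all genes.

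CRA1, a cruciferin and the most abundant wild-type transcript of the group, was at 200219, 176533 and 151274 CPM in wild type. In abi3-12 it was at 42184, 39250 and 39805 CPM. All mutant libraries lay far below all wild-type ones, a change of -2.12 ± 0.28 (adjusted p = 5.28e-09). PAP85, a vicilin-like protein, was at 17318, 25658 and 29570 CPM in wild type and at 744, 688 and 906 CPM in abi3-12. It had the largest fall of the list, -4.96 ± 0.30 (adjusted p = 1.12e-22). AT1G03890, a cruciferin-like protein, fell by 2.56 on the log2 scale, from 3640 to 8194 CPM down to 698 to 1242 CPM. SESA3, a 2S albumin, was at 137930, 100699 and 79024 CPM in wild type and at 30075, 28600 and 30431 CPM in abi3-12, a change of -1.83 ± 0.31 (adjusted p = 1.37e-06).

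The other 2S albumins differed among themselves. SESA2 was at 15786, 9239 and 5444 CPM in wild type and at 83695, 75579 and 91307 CPM in abi3-12. Every mutant library was above every wild-type library, and the change was 3.04 ± 0.32 (adjusted p = 4.77e-12). SESA5 was at 10884, 8664 and 8860 CPM in wild type against 26458, 27617 and 28918 CPM in abi3-12, a rise of 1.55 ± 0.43 (adjusted p = 0.00265). SESA4 was called lower at -1.31, but its wild-type libraries spread from 1833 to 9896 CPM, and without wild-type replicate 1 the change was -0.31 (adjusted p = 0.57). SESA1 was at 19342 to 22339 CPM against 26531 to 32067 CPM, which did not pass the test (0.49, adjusted p = 0.0989). CRU3 and CRU2, the other abundant cruciferins, also did not pass, at -0.60 (adjusted p = 0.104) and -0.61 (adjusted p = 0.156). Among the 10 most abundant wild-type transcripts, AT2G05580, a glycine-rich protein, was at 29793, 31727 and 29630 CPM against 27332, 28291 and 23305 CPM; it did not pass (-0.21, adjusted p = 0.636) and stood at 0.27 with library totals. The SESA genes are close copies in sequence, and how reads shared between them were counted is not given in the sources used here, so their separate levels are uncertain to that extent.

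As a share of all counts, the storage list held 35.7%, 30.2% and 25.7% in wild type and 25.6%, 24.8% and 28.9% in abi3-12. These ranges overlapped, and the exact permutation test, two-sided, gave p = 0.2, where 0.1 is the smallest p that 3 libraries against 3 allow. The late embryogenesis abundant (LEA) proteins held 8.10% ± 1.43 (SD, n = 3) against 6.84% ± 0.45 (SD, n = 3), with an exact permutation p of 0.3. Oil body proteins held 5.16%, 4.72% and 4.93% against 2.46%, 2.34% and 2.52%. Heat shock proteins held 0.533%, 0.849% and 1.04% against 0.151%, 0.146% and 0.118%. For both of these lists the groups did not overlap, and the exact permutation p was 0.1. As sums of scaled CPM, abi3-12 held 0.62 times the wild-type level of storage transcripts, 0.61 of LEA, 0.36 of oil body and 0.12 of heat shock transcripts, each without overlap at an exact permutation p of 0.1. The protocols name no molecular identifiers, so counting error is the least error these shares can have.

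**Figure D2:**
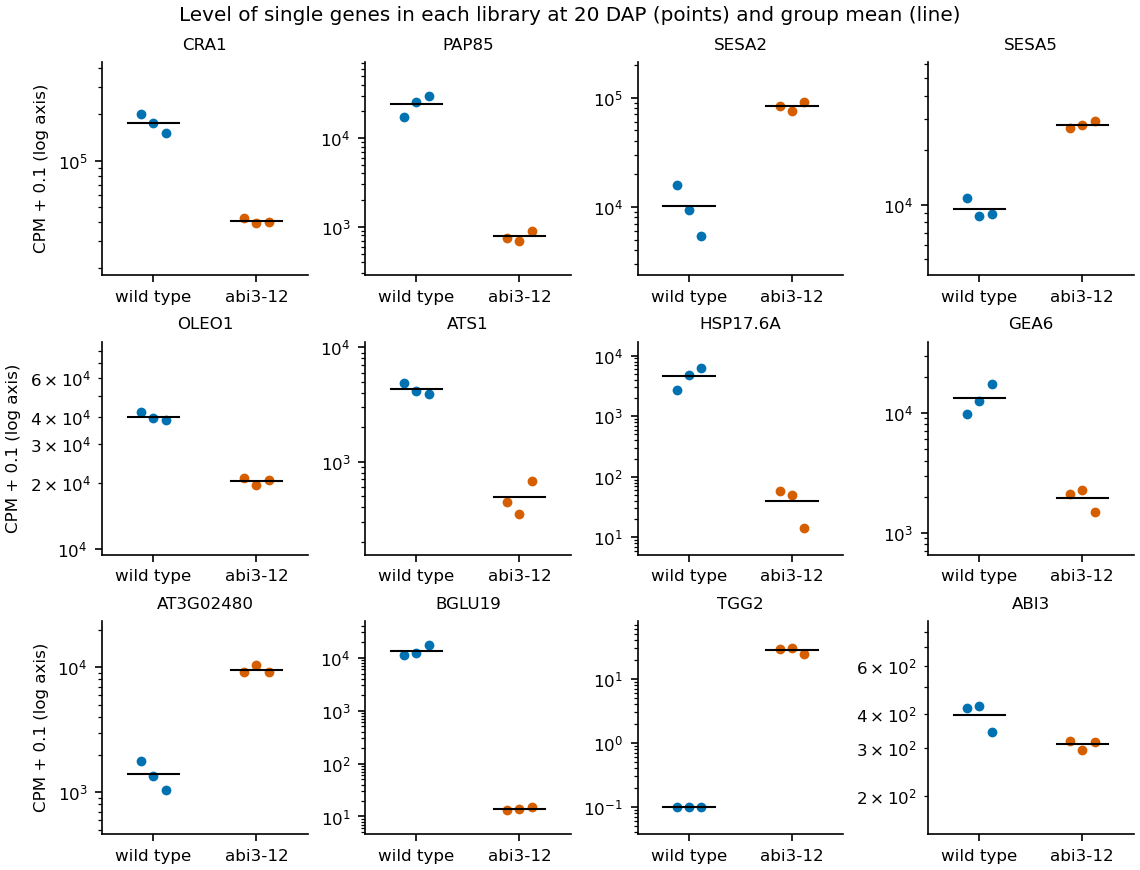
Level of 12 genes in each of the 6 libraries at 20 DAP (y axis, CPM + 0.1, log axis); points are libraries and lines are group means. CRA1, PAP85, ATS1, HSP17.6A, GEA6 and BGLU19 lie lower in all abi3-12 libraries, whereas SESA2, SESA5, AT3G02480 and TGG2 lie higher; the ABI3 groups are close, and that difference turns with library totals.

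Promoters show which short motifs stand before these genes. The 250 bases before the annotated start are shown for the storage, oil body and LEA member with the largest fall, for the storage gene with the largest rise, and for the beta-glucosidase BGLU19, the abundant gene with the largest fall. The last pair was chosen after their values were seen. Sequences and coordinates are from RefSeq on TAIR10.1, and the submitters' processing notes name TAIR10. Capitals mark the RY element (CATGCA or its reverse complement TGCATG) and the core of the ABA-responsive element (ACGTG or CACGT); copies may overlap, and the palindrome CACGTG counts once on each strand. PAP85 is at chr3:8013942-8014191, minus strand. OLEO3 is at chr5:20819818-20820067, plus strand. GEA6 is at chr2:16780369-16780618, minus strand. SESA2 is at chr4:13609091-13609340, plus strand. BGLU19 is at chr3:7527678-7527927, minus strand.
PAP85: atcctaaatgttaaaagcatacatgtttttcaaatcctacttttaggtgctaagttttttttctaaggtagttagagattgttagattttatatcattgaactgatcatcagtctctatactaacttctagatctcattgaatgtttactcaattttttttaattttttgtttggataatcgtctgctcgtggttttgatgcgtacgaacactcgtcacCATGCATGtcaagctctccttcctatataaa
OLEO3: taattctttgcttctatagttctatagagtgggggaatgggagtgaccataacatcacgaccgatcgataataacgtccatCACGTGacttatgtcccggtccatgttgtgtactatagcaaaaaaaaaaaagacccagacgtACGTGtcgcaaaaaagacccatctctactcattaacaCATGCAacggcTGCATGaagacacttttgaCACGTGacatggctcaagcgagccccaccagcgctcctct
GEA6: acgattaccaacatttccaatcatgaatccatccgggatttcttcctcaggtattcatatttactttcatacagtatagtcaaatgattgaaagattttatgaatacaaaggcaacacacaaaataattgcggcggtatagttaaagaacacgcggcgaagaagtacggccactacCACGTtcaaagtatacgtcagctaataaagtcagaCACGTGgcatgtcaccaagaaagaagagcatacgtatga
SESA2: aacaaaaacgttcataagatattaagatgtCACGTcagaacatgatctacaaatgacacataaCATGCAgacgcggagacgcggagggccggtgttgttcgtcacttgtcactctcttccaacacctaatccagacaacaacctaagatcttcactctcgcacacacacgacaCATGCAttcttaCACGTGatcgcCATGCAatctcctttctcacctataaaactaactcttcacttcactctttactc
BGLU19: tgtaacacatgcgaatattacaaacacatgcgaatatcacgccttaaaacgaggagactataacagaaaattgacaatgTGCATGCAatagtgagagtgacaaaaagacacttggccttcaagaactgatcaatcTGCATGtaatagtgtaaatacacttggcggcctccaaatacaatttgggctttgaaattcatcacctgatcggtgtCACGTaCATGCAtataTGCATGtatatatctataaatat

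In these windows PAP85 has 2 overlapping RY copies and no ABRE core, while GEA6 has no RY copy and 3 ABRE cores. OLEO3 has 2 RY copies and 5 ABRE cores, and BGLU19 has 5 RY copies and 1 ABRE core. SESA2, which rose, has 3 RY copies and 3 ABRE cores. Over windows of 300 bases, which run to 50 bases past the start, an RY element stood in 11 of 13 storage, 11 of 11 oil body and 7 of 26 LEA members. An ABRE core stood in 9, 8 and 24 of them, respectively. Over all 20784 tested genes with a window, 8.71% held an RY element and 28.1% an ABRE core. Genes lower by at least 2-fold held an RY element in 19.3% of 1160 windows, and genes higher by at least 2-fold did so in 8.48% of 1497. For both motifs together the shares were 9.74% and 3.14%, against 2.82% for all genes. Over the part before the start alone, the RY shares were 16.8% and 7.55%, against 7.71% for all genes. The shares with both motifs were then 7.76% and 2.47%, against 2.22%. A match describes the letters in this window and is not a bound site.

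Every oil body protein on the list was lower in abi3-12. Oleosins, caleosins and a steroleosin coat the oil droplets of the embryo. All 11 members tested were called lower, with a median of -2.21; with library totals 10 were. OLEO3, an oleosin, was at 80.7, 65.6 and 87.7 CPM in wild type and at 1.91, 0.883 and 2.78 CPM in abi3-12. The groups lay far apart (-5.55 ± 0.30, adjusted p = 1.7e-24). A second oleosin, AT1G48990, was at 198, 217 and 215 CPM against 8.09, 5.42 and 6.81 CPM. It fell by 4.95 on the log2 scale (adjusted p = 1.56e-32). The caleosins ATPXG2 and ATS1 (CLO1) fell by 4.63 and 3.14, ATS1 from 4901, 4124 and 3931 CPM to 444, 352 and 680 CPM.

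The abundant oleosins fell less. OLEO1, with the most transcript of the family, was at 42253, 39423 and 38791 CPM in wild type and at 20998, 19652 and 20683 CPM in abi3-12. Its groups did not overlap, and the change was -0.97 ± 0.22 (adjusted p = 0.000267). OLEO4 and OLEO2 fell by 2.74 and 2.21. The oleosin AT2G25890 was called lower at -2.10, but 1 library in each group decides its value. Wild-type replicate 1 was at 1184 CPM against 150 and 139 CPM in the others, and abi3-12 replicate 1 was at 27.3 CPM against 159 and 160 CPM. Without wild-type replicate 1 the change was -0.30 (adjusted p = 0.815), and without abi3-12 replicate 1 it was -1.62 (adjusted p = 0.0786). The steroleosin HSD1 was called lower at -1.14, but the genome holds a near-identical copy, AT5G50700, so its level is uncertain; with library totals it was not called (adjusted p = 0.0788).

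LEA proteins, made before drying and thought to protect membranes and proteins, were mostly lower, with exceptions. Of 26 tested, 17 were lower and 2 higher, with a median of -0.71; with library totals the counts were 10 and 5. GEA6 (EM6) was at 9797, 12638 and 17323 CPM in wild type and at 2107, 2256 and 1486 CPM in abi3-12. All mutant libraries were lower (-2.76 ± 0.24, adjusted p = 2.34e-15). AT2G42560 and LEA (AT2G21490) fell by 2.16 and 2.06 on the log2 scale. AT3G15670, another abundant LEA transcript, fell by 0.85, from 23807, 26942 and 25497 CPM to 14452, 13931 and 13816 CPM. RAB18, a dehydrin and the most abundant LEA transcript, fell by 0.63, from 26831, 34823 and 36371 CPM to 22078, 22031 and 19105 CPM. That RAB18 call was lost without wild-type replicate 3 (adjusted p = 0.0569), without abi3-12 replicate 3 (adjusted p = 0.0521) and with library totals (adjusted p = 0.488).

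AT3G02480, a small LEA-type protein, went the other way. It was at 1768, 1358 and 1036 CPM in wild type and at 9211, 10415 and 9101 CPM in abi3-12. Every mutant library was higher, by 2.79 ± 0.18 on the log2 scale (adjusted p = 3.6e-21). AT2G23110 was also called higher, at 0.52, but not without wild-type replicate 1 (0.36, adjusted p = 0.0726). RAB28, a LEA protein named for its response to ABA, was at 122 to 141 CPM in wild type and 119 to 132 CPM in abi3-12, which overlapped.

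Heat shock proteins had the lowest median of the lists, -3.03. Small heat shock proteins keep other proteins from clumping and build up in late seed maturation without heat. Of 19 tested members, 16 were lower and none was higher in edgeR's test, as with library totals; DESeq2 called 15 lower and none higher, and none was higher at an unadjusted p under 0.05 either. HSP17.6A was at 2677, 4767 and 6254 CPM in wild type and at 57.1, 49 and 13.9 CPM in abi3-12. The lowest wild-type library was far above every mutant library, and the change was -6.78 ± 0.52 (adjusted p = 1.34e-17). HSP17.4 was at 3316, 4961 and 6892 CPM against 243, 205 and 156 CPM, a fall of 4.65. HSP23.6-MITO was at 2.50, 10.4 and 26.3 CPM in wild type and at 0 in all abi3-12 libraries, at least 23.8-fold lower at the floor of 3 counts per library. ATHSP22.0, of the endoplasmic reticulum, was likewise at 0 in abi3-12 and at least 15.2-fold lower.

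HSFA9, the seed-specific factor known to switch on heat shock genes during maturation, was itself lower. It was at 367, 528 and 663 CPM in wild type and at 75.1, 69.1 and 44.2 CPM in abi3-12, without overlap (-3.03 ± 0.26, adjusted p = 6.93e-16). HSFA2, which acts in heat stress of leaves, was at 31.3, 41.1 and 31.7 CPM against 22.8, 25.2 and 21.4 CPM and did not pass the test (adjusted p = 0.215). The larger chaperones HSP101 and HSP70 fell by 2.07 and 1.45. HSFA9 and the chaperones were named after their values were seen.

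**Figure D3:**
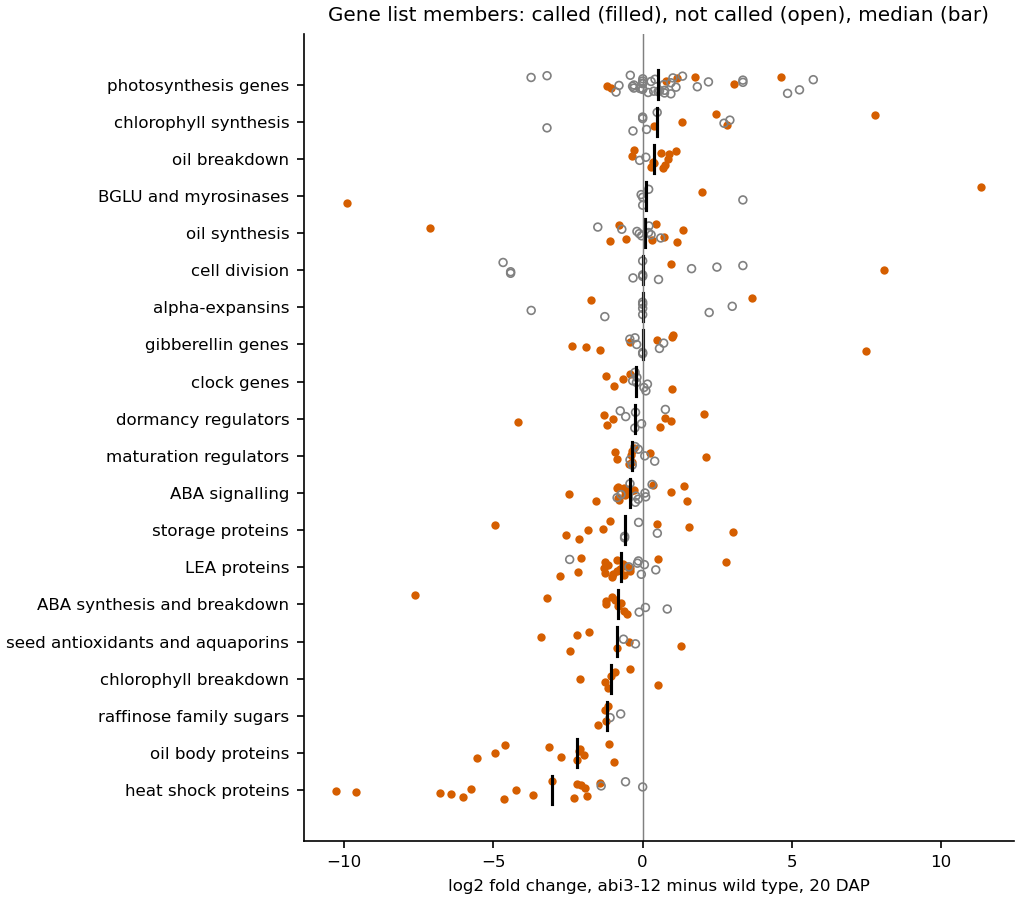
Log2 fold change, abi3-12 minus wild type at 20 DAP (x axis), of every tested member of 20 gene lists (y axis, ordered by median). Filled points are called, open points are not, and bars are medians; heat shock and oil body members lie lowest, while maturation regulators, ABA signalling and clock genes turn from mostly lower to mostly higher calls with library totals.

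Maturation regulators held calls in both directions. Of 15 tested maturation regulators, 7 were lower and 2 higher, but with library totals 1 was lower and 4 higher. The count of lower members was 4 without wild-type replicate 1 or 3 or abi3-12 replicate 1, and 3 without wild-type replicate 2 or abi3-12 replicate 2. FUS3, the B3 factor that acts beside ABI3, was at 51.6, 48.2 and 45.9 CPM against 35.6, 32.2 and 39.0 CPM. Its groups did not overlap, yet the change of -0.46 turned to 0.02 with library totals. Its call was lost when any library but abi3-12 replicate 3 was left out, at adjusted p from 0.0566 to 0.177. AGL67 at -0.35, BZO2H1 at -0.39 and HSL1 (VAL2) at -0.28 also turned with library totals. AGL67 was lost on leaving out any 1 library, and HSL1 on leaving out any but abi3-12 replicate 3.

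EEL, a bZIP factor of the ABI5 group, fell by 0.85, from 243, 110 and 170 CPM to 90.3, 89.3 and 110 CPM, with the ranges touching (adjusted p = 9.35e-06). DPBF2, another bZIP of that group, was at 69.3, 26.2 and 11 CPM in wild type and at 145, 130 and 184 CPM in abi3-12. All mutant libraries were higher (2.11 ± 0.29, adjusted p = 1.31e-08), and the wild-type libraries spread more than 6-fold. BZIP25 was called higher at 0.26. ABI5 was at 557, 754 and 682 CPM against 553, 463 and 469 CPM, which did not pass the test (adjusted p = 0.0535). WRI1, a factor for oil synthesis, was called lower at -0.92, but without wild-type replicate 1 it was at 0.19, and its call was also lost without abi3-12 replicate 1 (-0.89, adjusted p = 0.105) or replicate 2 (-0.64, adjusted p = 0.251).

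Dormancy genes split evenly, with 4 of 14 tested higher and 4 lower; with library totals 5 were higher and 4 lower. DOG1, which sets the depth of dormancy, was at 501, 363 and 256 CPM in wild type and at 309, 312 and 312 CPM in abi3-12. The mutant range lay inside the wild-type range (-0.26, adjusted p = 0.378). Its relative AT4G18650 (DOG1-like 4) was at 258, 232 and 265 CPM against 14.9, 12.6 and 14.5 CPM. That gene fell by 4.17 ± 0.24 (adjusted p = 7.84e-23). The family members AT4G18680 and AT4G18660 moved in opposite directions, at -1.21 and 0.58. SOM, a zinc-finger repressor of light-dependent germination, fell by 1.01. PIL5 (PIF1), the phytochrome-interacting factor above SOM, was higher by 0.76. E12A11 (MFT) rose by 0.95 and DAG1, a Dof factor, by 2.06, the latter from 1.04 to 1.91 CPM up to 5.67 to 6.50 CPM.

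Genes of ABA synthesis and breakdown were lower or not called. Of 13 tested, 10 were lower and none higher in edgeR's test, and 1 was higher at an unadjusted p under 0.05. With library totals 3 were lower and 2 higher, and 1 was called higher with DESeq2 and without wild-type replicate 1. The breakdown enzyme CYP707A1 was at 16.0, 8.30 and 5.70 CPM in wild type and at 1.24, 0.378 and 2.17 CPM in abi3-12. Its groups did not overlap (-3.21 ± 0.52, adjusted p = 7.63e-07). CYP707A3 was at 1.49 to 2.64 CPM in wild type and at 0 in every abi3-12 library, at least 3.93-fold lower. CYP707A2, the breakdown enzyme that acts late in seeds, was at 33.2, 72.8 and 87.3 CPM against 36.3, 31.8 and 26.3 CPM (-1.02), a call lost with library totals (adjusted p = 0.0636).

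Most synthesis genes tested were lower as well. The cleavage enzyme NCED6, active in endosperm, was at 36.1, 47.8 and 39.7 CPM against 19.2, 16.3 and 17.3 CPM, a fall of 1.22 (adjusted p = 3.28e-07). NCED3 was at -1.24, NCED9 at -0.94, ABA3 at -0.62 and ABA1 at -0.52, and all 4 calls were lost with library totals. NCED2 at -0.82 and NCED5 at -0.72 were lost on leaving out single libraries: wild-type replicate 3 and abi3-12 replicates 2 and 3 for both, and wild-type replicate 2 for NCED5, at adjusted p from 0.0587 to 0.425. AAO3, which makes ABA from its aldehyde, was at 39.4 to 48.1 CPM against 43.6 to 49.2 CPM and did not pass.

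ABA signalling held both directions. Of 25 tested members 12 were lower and 4 higher, but 3 were lower and 7 higher with library totals, and 7 were lower without abi3-12 replicate 2. The receptor PYL12 was at 43.3, 51.7 and 62.9 CPM in wild type and between 7.12 and 10.3 CPM in abi3-12 (-2.47 ± 0.20, adjusted p = 4.9e-16). PYL2, another receptor, fell by 1.55. Among the PP2C phosphatases, which block the pathway when ABA is absent, HAI3 was at 98.7, 108 and 120 CPM against 288, 276 and 279 CPM. It rose by 1.37 ± 0.18 (adjusted p = 1.8e-09), and ABI1 rose by 0.96, whereas PP2CA fell by 0.85. SNRK2.2, a kinase of the pathway, was higher by 0.35. PYL1, called higher at 1.48 from levels at or below 1.51 CPM, was lost without wild-type replicate 2 (adjusted p = 0.185) and without abi3-12 replicate 2 (adjusted p = 0.162).

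Gibberellin genes changed in both directions, with 4 higher and 4 lower of 15; with library totals 4 were higher and 2 lower, and the same numbers were called without abi3-12 replicate 2. The DELLA repressors RGL3 and RGL2 rose by 1.02 and 1.00. RGL3 went from 27.8, 43.0 and 48.7 CPM to 86.7, 76.7 and 78.9 CPM, without overlap (adjusted p = 2.8e-06). GAI, another DELLA, rose by 0.48. GA2OX6, which inactivates gibberellin, was at 14.3, 18.8 and 29.0 CPM against 4.61, 4.16 and 2.78 CPM, a fall of 2.37 (adjusted p = 1.9e-06). GA3OX1 and GA3OX2, which make active gibberellin at germination, had no count in the 6 libraries.

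Genes for using oil were higher while those for packing it were lower. Of 13 oil breakdown genes, 9 were higher and 2 lower, with a median of 0.37; with library totals 11 were higher and none lower, and with only the groups compared 7 were higher and none lower. PCK1, which starts sugar synthesis from oil carbon, was at 1067, 1282 and 1237 CPM in wild type and at 2556, 2764 and 2488 CPM in abi3-12. Each mutant library was above each wild-type library (1.12 ± 0.10, adjusted p = 1.46e-15). ICL, the glyoxylate-cycle lyase, was at 1829, 2561 and 2695 CPM against 4334, 4579 and 4011 CPM, a rise of 0.87. MFP2 and LACS7, of fatty acid oxidation, rose by 0.83 and 0.75, and the lipase SDP1 by 0.67. CSY2, a citrate synthase, was called lower at -0.30 but turned to 0.18 with library totals. It was not called without wild-type replicate 2 or 3 or abi3-12 replicate 2.

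Oil synthesis genes did not move together, with 5 of 18 higher and 4 lower. With library totals 11 were higher and 3 lower, and without wild-type replicate 1 the higher count was 10 (3 without wild-type replicate 3). FAD2, the oleate desaturase, was at 310, 187 and 109 CPM in wild type and at 484, 454 and 607 CPM in abi3-12 (1.35 ± 0.20, adjusted p = 1.26e-07). KCS18 (FAE1), which lengthens fatty acids for seed oil, was at 55.7, 12.3 and 0.619 CPM against 0.337, 0 and 0 CPM, at least 41.7-fold lower by the group means; its wild-type libraries spread widely. SUS3, a sucrose synthase, fell from 1882 to 2192 CPM down to 887 to 996 CPM. TAG1 (DGAT1), which closes oil synthesis, fell by 0.80, and PKP-BETA1, a plastid pyruvate kinase subunit, by 0.57; the last was not called with library totals (adjusted p = 0.612). SUS2 rose by 1.15, a call lost without abi3-12 replicate 2 (adjusted p = 0.0548).

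**Figure D4:**
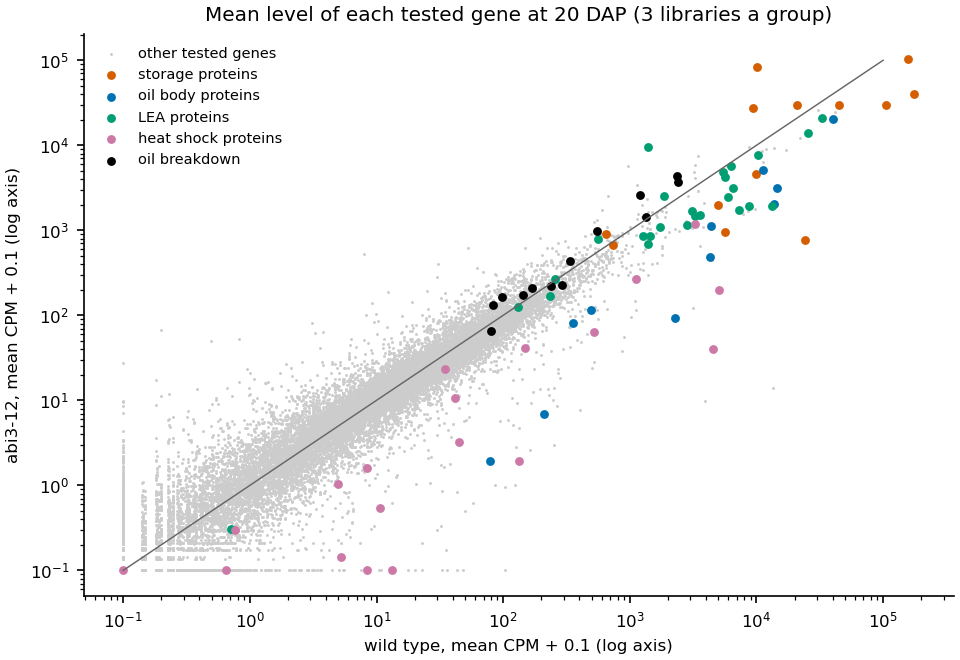
Mean level of each tested gene in wild type (x axis) and abi3-12 (y axis) at 20 DAP, both CPM + 0.1 on log axes, with 3 libraries a group and the line of equal levels. Oil body and heat shock members lie below the line, most oil breakdown genes lie above it, and storage proteins lie on both sides.

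Protection and vacuole genes of late maturation were mostly lower. Of 9 tested seed antioxidants and aquaporins, 6 were lower and 1 higher. PER1, a seed peroxiredoxin, was at 9195, 9542 and 10231 CPM in wild type and at 1826, 1728 and 1829 CPM in abi3-12. The fall was 2.43 ± 0.29 on the log2 scale (adjusted p = 2.95e-10). TIP3;1 and BETA-TIP (TIP3;2), aquaporins of the storage vacuole, fell by 2.19 and 1.80, and the metallothionein AtMT4b by 3.42. CAT2, a catalase of green tissue and oil-using seedlings, was at 362, 639 and 559 CPM against 1459, 1182 and 1133 CPM, a rise of 1.28 (adjusted p = 5.36e-06).

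Raffinose family genes, whose sugars build up before drying, were lower in 4 of 6 cases and higher in none, by edgeR, by DESeq2 and at an unadjusted p under 0.05. GolS1 was at 276, 539 and 627 CPM against 169, 192 and 144 CPM, and GolS2 at 541, 713 and 909 CPM against 340, 316 and 272 CPM. They fell by 1.51 and 1.22, and STS, which makes stachyose, by 1.26. DIN10 at -1.17 was not called without wild-type replicate 1 (adjusted p = 0.0949) or with library totals (adjusted p = 0.104).

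Chlorophyll breakdown genes were lower and some synthesis genes were higher. Wild-type Arabidopsis seeds lose their green colour in late maturation, and these enzymes take chlorophyll apart. Of 7 tested, 6 were lower and 1 higher; with library totals 3 were lower. AT4G11910 (SGR2) was at 439, 643 and 800 CPM in wild type and at 152, 160 and 131 CPM in abi3-12. Its groups did not overlap (-2.09 ± 0.17, adjusted p = 3.57e-16). NYE1 (SGR1), which pulls magnesium from chlorophyll, was at 617, 390 and 439 CPM against 122, 255 and 233 CPM (-1.25, adjusted p = 0.00256; adjusted p = 0.059 with library totals). NYC1, a chlorophyll b reductase, fell by 1.16. PPH at -1.07 was not called without wild-type replicate 3 (adjusted p = 0.098), and NOL, called higher at 0.52, was not called without wild-type replicate 1 or 2 or abi3-12 replicate 1.

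Among 13 chlorophyll synthesis genes 5 were higher and none lower by edgeR, all from wild-type levels under 20 CPM. DESeq2 called 6 higher and none lower, 9 were higher with library totals, and none was lower at an unadjusted p under 0.05. G4 (CHLG), the last enzyme of the pathway, was at 0.735, 1.43 and 0.743 CPM against 5.62, 4.03 and 7.43 CPM (2.45 ± 0.36, adjusted p = 7.24e-08). POR C had no count in wild type and was at 2.17 to 2.58 CPM in abi3-12, at least 5.84-fold higher. Of 43 photosynthesis genes, 5 were higher and 2 lower, a smaller share than among all genes (8 were higher with DESeq2 and 9 with library totals), and many stayed near 1 CPM or below in both groups. RCA, the Rubisco activase, was at 2.50, 4.28 and 2.6 CPM against 9.66, 9.71 and 13.9 CPM, a rise of 1.76 (adjusted p = 1.58e-08). LHCB4.2, an antenna protein, fell by 1.06. The Rubisco small subunit genes are near-identical copies, and the rises of RBCS1A (1.16) and RBCS3B (4.64) are uncertain for that reason.

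BGLU19, a beta-glucosidase of seeds, had the largest fall among abundant transcripts. It was at 11233, 12195 and 16984 CPM in wild type and at 13.1, 13.7 and 15.2 CPM in abi3-12. The change was -9.92 ± 0.60 (adjusted p = 2.47e-22). Its relative BGLU25 rose by 1.99, from 45.2 to 55.7 CPM up to 193 to 203 CPM. TGG2, a myrosinase of the glucosinolate defence system, had no count in the wild-type libraries and was at 29.2, 29.8 and 24.1 CPM in abi3-12, at least 69.2-fold higher. TGG1, the companion myrosinase, was at 503 to 549 CPM against 577 to 640 CPM and did not pass the test (adjusted p = 0.4).

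The other largest rises also started from almost no transcript in wild type. Ranking by fitted log2 fold change favours genes near 0 in a group, so such a start follows in part from the choice. CORI3, annotated in the tyrosine transaminase family, was at 0 to 0.294 CPM in wild type and at 54.4, 65.6 and 82.6 CPM in abi3-12, at least 169-fold higher. NAI2, a protein of endoplasmic reticulum bodies, was at least 43.2-fold higher, at 15.2, 18.8 and 17.9 CPM. GLL22 and IGMT5, a GDSL-lipase-like protein and an indole glucosinolate methyltransferase, were at least 21.1-fold and 17.3-fold higher. AT5G23820 and AT1G54010 rose from 0 to 1.3 CPM up to 46.4 to 59.9 CPM, by 6.95 and 6.2 on the log2 scale. ATSBT5.2, MRD1, MSL9, AT2G37660 and AT4G34419 completed the 12 largest rises, each at least 21.5-fold higher.

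The largest falls were mostly genes with no count in the mutant, which the same ranking favours. AT1G27030, of unknown function, was at 79.3, 99.4 and 130 CPM in wild type, and at 0 in abi3-12, at least 188-fold lower. CCD7, a carotenoid cleavage enzyme of strigolactone synthesis, was at 24.2, 53.8 and 65.0 CPM against 0, at least 87.0-fold lower in abi3-12. AT2G31985 was at 36.6 to 47.3 CPM against 0, at least 79.1-fold lower. MSRB5, FRD3, AT3G25160, AT2G34700 and AT1G77530 ranged from 6.07 to 33.8 CPM in single wild-type libraries and were at least 18.8-fold to 36.5-fold lower in abi3-12. TPS-CIN, a cineole synthase, was at 69.5, 33.6 and 5.57 CPM against 0, but its near-identical neighbour AT3G25830 makes that level uncertain, and DESeq2 did not call it (adjusted p = 0.522).

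Expansins and cell division genes gave few calls. Of 10 alpha-expansins 1 was higher and 1 lower; DESeq2 called 3 higher and none lower, and none was lower with library totals. EXPA20, an expansin-like wall protein, rose by 3.67, from 1.11 to 2.35 CPM up to 18.0 to 26.0 CPM (adjusted p = 1.07e-22). EXPA15, called lower at -1.72, was spread from 0.619 to 176 CPM in wild type, and without wild-type replicate 1 the change was 0.77 (adjusted p = 0.391); its call was also lost without abi3-12 replicate 1 or 2 and with DESeq2 (adjusted p = 0.068). MCM2, of the replication helicase, had no count in wild type and was at 2.13, 4.03 and 2.48 CPM in abi3-12, at least 7.20-fold higher. Of 13 division genes 2 were higher (4 with DESeq2 and 3 with library totals). PCNA2, the other one called, was at 0.96, a call lost without wild-type replicate 1 or 2 or abi3-12 replicate 2 or 3. Of 12 clock genes 4 were lower and 1 higher, turning to 2 lower and 5 higher with library totals. ELF4 and PRR3 fell by 1.25 and 0.96, GI by 0.65 (adjusted p = 0.233 with library totals), and LHY rose by 0.97.

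Markers of the tissues in a seed moved in both directions. Of 19 tested seed coat markers 5 were lower and 1 higher, and 3 were lower without wild-type replicate 1 or abi3-12 replicate 1. With library totals 2 were lower and 2 higher. The summed share of the list was 0.0540% to 0.0576% of counts in wild type and 0.0574% to 0.0670% in abi3-12. As sums of scaled CPM the list was at 1099, 1031 and 984 in wild type and at 868, 763 and 887 in abi3-12. On that scale it was lower in abi3-12 without overlap, so its direction depends on the scaling. Endosperm markers were few: EPR1, an abundant wall protein, was at 38455, 42429 and 45335 CPM against 25346, 23263 and 25067 CPM (-0.78, adjusted p = 0.0138), a call lost without wild-type replicate 3, without abi3-12 replicate 2 and with library totals. AGL62 and SUC5, the others tested, stayed at or below 3.40 CPM, with AGL62 called higher (1.08). Of 6 embryo markers 2 were higher and 2 lower. With only the groups compared none was higher and 1 was lower, and with library totals 3 were higher and 1 lower. The embryo list held 0.00953% to 0.0535% of wild-type counts and 0.0157% to 0.0209% of abi3-12 counts. That wild-type range comes from PDF1, an epidermal gene at 877, 310 and 62.7 CPM in wild type and 82.8, 68.1 and 145 CPM in abi3-12. Of the 4 tested markers of the silique wall, 2 were lower, and the list held at most 0.00346% of any library. The part of tissue make-up in the results above was not tested.

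The calls at 20 DAP were set beside those at the stages on either side. Of the genes called at 20 DAP, 4018 were called in the same direction at 18 DAP, which is 51.1% of the calls at 20 DAP and 66.1% of those at 18 DAP, and 83 in the opposite one. At 22 DAP the numbers were 4902 (62.3% and 67.5%) and 51. The difference between the effects at 20 and 18 DAP was called for 1188 genes (5.68%; 2.65% higher and 3.03% lower at 20 DAP), and that between 20 and 22 DAP for 639 (3.06%; 1.74% and 1.32%). The latter count depends on the other groups in the fit, which share 1 estimate of the spread: with only the groups compared it was 17, and the count for 18 DAP was 447. It also moved with single libraries: it was 421 without wild-type replicate 1 at 20 DAP, 967 without wild-type replicate 3, 398 without abi3-12 replicate 2, 334 without wild-type replicate 1 at 22 DAP and 994 without abi3-12 replicate 3 at 22 DAP. It was split into 363 higher and 276 lower, against 624 and 191 with library totals.

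Several of the genes above did change their effect with stage. PAP85 differed by -2.32 at 18 DAP, -4.96 at 20 DAP and -7.38 at 22 DAP, and both steps passed the test of the difference (adjusted p = 1.74e-06 and 5.88e-06). Wild-type PAP85 went from 7890 CPM ± 1015 (SD, n = 3) at 18 DAP to 30787 CPM ± 3029 (SD, n = 3) at 22 DAP. Mutant PAP85 fell from 1581 CPM ± 201 (SD, n = 2) to 184 CPM ± 36.0 (SD, n = 3). ATS1 followed the same order, at -1.24, -3.14 and -6.48, with both differences called; that from 20 to 22 DAP was lost with only the groups compared (adjusted p = 0.0666). SESA2 was higher by 2.92, 3.04 and 4.66, and the step from 20 to 22 DAP passed (adjusted p = 0.0176). That SESA2 call was lost with only the groups compared (adjusted p = 0.346), without wild-type replicate 1 or abi3-12 replicate 2 at 20 DAP, and without wild-type replicate 3 or abi3-12 replicate 2 at 22 DAP. HSFA9 was furthest below wild type at 18 DAP (-5.48), and the difference from 20 DAP was called (2.46, adjusted p = 0.000349). BGLU19 was at -7.18 at 18 DAP and -9.92 at 20 DAP (difference -2.74, adjusted p = 0.0046).

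**Figure D5:**
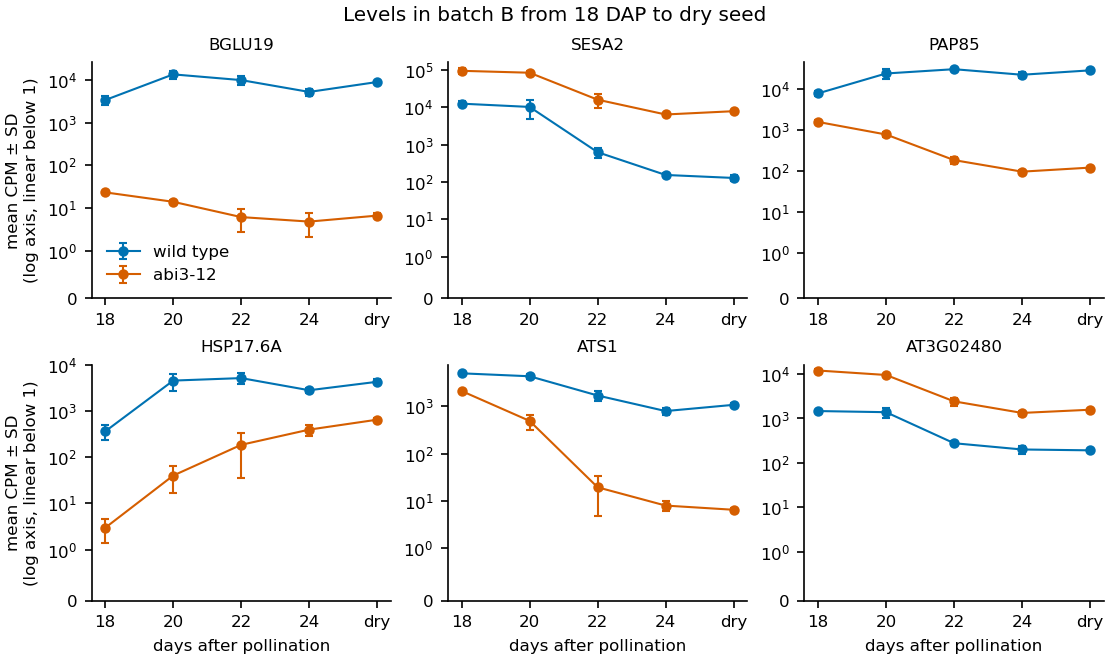
Mean level of 6 genes in wild type and abi3-12 of batch B (y axis, CPM, log axis that is linear below 1; bars are SD over 2 or 3 libraries) from 18 DAP to dry seed (x axis). BGLU19, PAP85, HSP17.6A and ATS1 lie below wild type at each stage, and SESA2 and AT3G02480 lie above it.

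The genes with large changes were also followed along the wild-type course. In the wild type of batch A, whose libraries do not enter the comparison, 53.5% of the genes lower by at least 2-fold in abi3-12 fell between 18 and 20 DAP and 21.4% rose, against 30.3% and 24.8% of all genes. From 20 to 22 DAP 42.2% fell and 9.26% rose, against 19.4% and 23.0% of all genes. Genes higher by at least 2-fold rose from 18 to 20 DAP in 29.0% of cases and fell in 23.9%. From 20 to 22 DAP 36.0% of them rose and 5.75% fell. These are counts of calls: 54.3% of the genes tested in batch A were called from 18 to 20 DAP (24.4% rose and 29.9% fell) and 41.7% from 20 to 22 DAP (22.6% and 19.1%). With library totals the course itself had 8435 rises and 3984 falls from 18 to 20 DAP, and 8177 and 1815 from 20 to 22 DAP, in place of 4978 and 6102, and 4613 and 3901.

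Some lists gave different numbers of calls at the other stages, where the background was 29.1% of genes called at 18 DAP (15.2% higher and 13.9% lower) and 34.7% at 22 DAP (17.2% and 17.5%). Of 43 photosynthesis genes, 21 were higher at 18 DAP, 5 at 20 DAP and 22 at 22 DAP. Oil body proteins were lower in 10, 11 and 11 of 11 cases, heat shock proteins in 12, 16 and 15 of 19, and LEA proteins in 13, 17 and 18 of 26. Oil breakdown genes were higher in 6, 9 and 5 of 13. These counts were not tested against each other. Gene by gene, the difference of effect was called for 2 photosynthesis genes between 20 and 18 DAP and 1 between 20 and 22 DAP. The numbers were 5 and 6 for oil body and 3 and 2 for heat shock proteins. They were 2 and 0 for LEA proteins and 1 each for oil breakdown genes. Over all genes, 5.68% and 3.06% were called. The median change of the photosynthesis list was 1.76 at 18 DAP, 0.51 at 20 DAP and 1.60 at 22 DAP.

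The allele abi3-6 at 20 DAP, measured in batch A with 2 libraries against 3 of its own wild type, gave calls for 16164 of 20414 genes (79.2%; 44.1% higher and 35% lower). Of 20072 genes tested in both, 5760 were called in the same direction, which is 73.6% of the abi3-12 calls among them and 35.9% of the abi3-6 calls, and 1073 were called in opposite directions. The difference between the effects was called for 11874 of 21391 genes (55.5%), 5749 (26.9%) higher and 6125 (28.6%) lower in abi3-6 (8828 and 3029 with library totals). Allele and batch cannot be told apart here. PAP85 was at 34.8 CPM ± 1.07 (SD, n = 2) in abi3-6 against 32325 CPM ± 1449 (SD, n = 3) in its wild type, a change of -9.86. OLEO1, lower by 0.97 in abi3-12, was lower by 10.40 in abi3-6, with the difference called at adjusted p = 1.24e-37. SESA5 was higher in abi3-12 and was at -8.71 in abi3-6 (difference adjusted p = 9.43e-22). DOG1, within the wild-type range in abi3-12, was at 2.55 CPM ± 0.977 (SD, n = 2) in abi3-6 against 99.4 CPM ± 28.5 (SD, n = 3), a change of -5.31. By list, abi3-6 had 12 of 13 storage, 11 of 11 oil body and 24 of 26 LEA members lower, and 43 of 43 photosynthesis genes higher. ABI3 transcript was at -1.44 in abi3-6, and that difference between the effects was called as well (adjusted p = 3.62e-10).

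The genotypes with dog1-4 at 20 DAP were compared with the same 3 wild-type libraries, so their values are given side by side only. For PAP85 the change was -4.96 in abi3-12 and -0.29 in dog1-4; the double mutant stood at -5.85 and the triple mutant at -4.70. HSP17.6A was at -6.78, -1.06, -11.42 and -9.45 in that order, and GEA6 at -2.76, -1.59, -6.62 and -5.49. OLEO1 was at -0.97, -0.03, -2.05 and -1.25. SESA2 was at 3.04, -0.69, 2.02 and 1.55, AT3G02480 at 2.79, -1.01, 1.80 and 2.24, and SESA5 at 1.55, -2.13, -0.49 and -1.0. For BGLU19 the values were -9.92, -0.85, -10.63 and -10.90. TGG2 had no count in dog1-4 and was at 27.7 CPM ± 3.10 (SD, n = 3) in abi3-12, 69.6 CPM ± 8.52 (SD, n = 3) in the double and 61.4 CPM ± 17.3 (SD, n = 3) in the triple mutant. ABI3 was at 541 CPM ± 28.0 (SD, n = 3) in dog1-4, 334 CPM ± 14.5 (SD, n = 3) in the double and 404 CPM ± 36.9 (SD, n = 3) in the triple mutant.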

How the data were processed

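RNA sequencing of seeds was deposited as 1 table of raw counts for 37336 genes in 123 libraries; the authors made these counts before deposit, and their submitters' processing notes name HISAT2 2.1.0, StringTie 1.3.2, Cufflinks, SAMtools and TAIR10, with no role or order. Libraries were poly(A)-selected and strand-specific, per the labels' protocols; how shared reads were counted is not given in the sources used here. Highly abundant storage transcripts make the choice of scaling matter.

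Groups came from the labels. Counts of all batch B groups entered 1 edgeR 4.0.16 quasi-likelihood fit (R 4.3.3) with TMM factors, filterByExpr at a minimum count of 10, and Benjamini-Hochberg adjustment over 20912 genes. Differences between stages used the same fit, abi3-6 a fit of both batches and the course a fit of batch A. CPM are TMM-scaled. A fold against a group at the floor of 3 counts per library is a lower bound by group means, and floors cover counting error only. Shares were compared by an exact permutation test. Totals ran from 2577281 to 20277489 across the series. The procedure was tested on simulated data: 157 of 200 changed genes were recovered, with 11 false calls among 20763 genes. In that simulation abi3-12 at 20 DAP equalled wild type except in the 200 genes, which were drawn from those with enough expected counts. The real comparison had far more changes and unlike scaling factors between the groups. The simulation therefore could not test the choice of scaling or the error rate under so many changes. Alternatives were RLE factors, library totals, no filter, DESeq2 1.42.0, a replicate block, only the groups compared and leaving out each library. Scripts used Python 3.11.15, pandas 2.3.3, numpy 2.4.6, scipy 1.17.1 and matplotlib 3.10.9. Gene names and promoters are from RefSeq TAIR10.1, where 37051 identifiers were found.

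The comparison and the 20 gene lists, with 4 marker lists, were chosen with earlier results of these data known. Named genes were ABI3 and called regulators, dormancy and ABA synthesis genes; the 12 largest rises and falls among called genes without overlap and with at least 5 CPM; up to 4 largest called members per other list and members against their list; the 10 most abundant wild-type genes; and the 4 largest per direction of each tested difference. Other genes in the text, among them HSFA9, DOG1 and members that were not called, were chosen after their values were seen. The values of 1 named gene are not reported here.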

Additional observations from a re-analysis of the deposited data

Results flagged for a closer look

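Genes are listed here because the effect of a genotype differed between stages or alleles by edgeR's quasi-likelihood test of the difference itself; they are the largest such differences, and each is a log2 value with its adjusted p. Fitted differences that involve a group at 0 depend on the prior count and are no bound.

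Between 20 and 18 DAP, AT1G18020 differed by 10.17 (adjusted p = 0.0467), with 0 CPM in abi3-12 at 18 DAP; the call was lost on leaving out most single libraries, at adjusted p up to 0.339. AT1G58807 and AT1G59124, near-identical resistance genes whose levels are uncertain, differed by -9.50 and -9.51 (adjusted p = 6.91e-06 each; 0.153 with only the groups compared) and were at 0 in wild type at 18 DAP. RPM1, an immune receptor, differed by 8.13 (adjusted p = 0.00206); at 20 DAP it was at 3.71, 4.16 and 40.5 CPM in abi3-12, so 1 library holds most of it. IAA31 differed by -8.25 (adjusted p = 0.00777; DESeq2 adjusted p = 0.788) and ATSDI1, a sulphur-deficiency gene, by 5.88 (adjusted p = 0.000149), from 339 against 0.286 CPM at 18 DAP to 226 against 13.5 CPM at 20 DAP. AT3G19800 differed by 6.15 (adjusted p = 0.0155) and was lost without wild-type replicate 2 or 3 at 20 DAP. GLN1;4 differed by -7.30 (adjusted p = 0.0466) and was lost on leaving out any of 10 libraries singly and with DESeq2 (adjusted p = 0.693).

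With only the groups compared none of the 8 differences between 20 and 22 DAP below was called, at adjusted p from 0.0664 to 0.459. Between those stages NPC2, a phospholipase, differed by 4.11 (adjusted p = 3.88e-06). AT2G37660 and MSL9 differed by 7.23 (adjusted p = 0.00207) and 7.78 (adjusted p = 0.00277); both had no count in wild type at 20 DAP and some at 22 DAP, and MSL9 was lost without wild-type replicate 1 at 22 DAP (adjusted p = 0.0617). LSMT-L differed by 5.77 (adjusted p = 0.0297) and was lost on leaving out any of 6 libraries singly, at adjusted p from 0.0558 to 0.119. AT2G34700 differed by -10.09 (adjusted p = 0.0016), and without abi3-12 replicate 2 at 22 DAP it stood at -5.20 (adjusted p = 0.452). AT5G50090 differed by -6.20 (adjusted p = 0.0038) and was lost without wild-type replicate 1 at 22 DAP (adjusted p = 0.0769). AT5G51490 differed by -5.80 (adjusted p = 0.0108), and without abi3-12 replicate 2 at 22 DAP by -0.76 (adjusted p = 0.996); it was also lost without wild-type replicate 1 at 20 DAP or at 22 DAP. AT5G55620 differed by -5.82 (adjusted p = 0.0478) and was lost on leaving out any of 8 libraries singly, at adjusted p from 0.0594 to 0.158, and with no filter (adjusted p = 0.0559).

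Between abi3-6 and abi3-12 at 20 DAP, where allele and batch cannot be told apart, 4 transcripts present in abi3-12 had no count in abi3-6. DSI-1VOC differed by -15.36 (adjusted p = 2.66e-40), CBSX4 by -15.25 (adjusted p = 2.79e-53), AtMT4a by -16.18 (adjusted p = 6.65e-29) and SDH2-3, a seed-specific succinate dehydrogenase subunit, by -15.07 (adjusted p = 4.65e-53). PYK10, a beta-glucosidase of roots and seedlings, differed by 18.72 (adjusted p = 0.000142) and was at 3970 CPM in abi3-6. AT5G26260 differed by 19.07 (adjusted p = 0.0422) and RBCS2B, a Rubisco subunit with near-identical copies, by 18.76 (adjusted p = 0.0401); both calls were lost without wild-type replicate 2 of batch B, at adjusted p of 1 and 0.226. AT5G26260 was also lost without abi3-12 replicate 1 and RBCS2B without wild-type replicate 1 of batch B. ALC, a fruit-wall factor, differed by 18.36 (adjusted p = 2.46e-18).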

How the results depend on the processing

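The count of 7868 genes called at 20 DAP was 7860 with RLE factors, 7329 with no filter, 7733 with DESeq2 and 10104 with library totals. It was 5803 with only the groups compared and 6566 to 7546 on leaving out 1 library. Library totals kept 63.0% of the calls and made 88.8% of calls higher, against 48.6%. The differences of effect called for 20 against 18 DAP (1188) fell to 447 with only the groups compared, and were 802 to 1595 on leaving out 1 library. Those for 20 against 22 DAP (639) fell to 17 with only the groups compared and were 334 to 994 on leaving out 1 library. The allele difference (11874) was 10776 to 11867.

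Replicate numbers are shared only as numbers: deviations of same-numbered libraries correlated at -0.03, 0.006 and -0.128. With the replicate block the counts were 7819, 1167, 646 and 11769. Named values that turned with library totals were AGL67 at 0.13, AT2G05580 at 0.27, ABI3 at 0.11, FUS3 at 0.015, CSY2 at 0.18, BZO2H1 at 0.086 and HSL1 at 0.20. On leaving out 1 library EXPA15 ran from -2.27 to 0.77 and WRI1 from -1.27 to 0.19, both highest without wild-type replicate 1. Over 136 named genes and 12 alternatives, 1521 values kept direction and call, 99 in 35 genes lost the call and 10 turned; the cause was not tested. Of these losses 14 came with only the groups compared, among them ABI3, NCED5, NCED9, WRI1, EXPA15, CSY2, HSL1, NOL, AT2G23110 and PDF1. Depth limits low genes: 1 abi3-12 library held 4283538 counts, and without it 7090 genes were called.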
